A study of Arabidopsis thaliana with 12 samples.

Results

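The 40 genes described here form the core of the plant cell cycle: the A, B and D cyclins, the cyclin-dependent kinases CDKA;1 and CDKB, their inhibitors of the KRP and SIAMESE families, factors that copy DNA, and proteins that carry out mitosis and cytokinesis. They were taken by their locus identifiers, on function, from the 33602 genes of the deposited table, though with earlier results of these data known. All 40 had enough reads to be tested. By role they comprised 6 D cyclins, CDKA;1, 5 inhibitors, 7 genes of S phase, 3 A2 cyclins and 18 mitotic genes.

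A dividing plant cell leaves G1 when D cyclins bound to CDKA;1 phosphorylate the retinoblastoma-related protein RBR1 and so free E2F factors, which switch on replication genes such as those of the MCM helicase. B cyclins and CDKB kinases then drive mitosis, and many of their genes are activated by MYB3R factors through promoter elements called MSA. KRP and SIAMESE proteins inhibit cyclin-dependent kinases, and SIAMESE proteins are known for turning dividing cells towards endoreduplication, in which DNA is copied without division. Seedlings of this age divide mainly in the root and shoot meristems, in leaf primordia and in the stomatal lineage, while the hypocotyl grows mostly by cell elongation.

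RNA came from whole seedlings of Arabidopsis thaliana, wild-type Columbia 0, that had been grown at 22 °C in days of 10 h of white light. At 3 days of age they spent the 10 h light period of day 4 in 1 of 4 conditions and were collected when it ended: shade with warmth, called warm shade here (28 °C), shade alone, called cool shade (20 °C), white light with warmth, called warm light (28 °C), or white light alone, called cool light (20 °C). Each group had 3 libraries, and nothing in the labels says that replicates came from separate cultures, so p-values measure only the spread between these libraries, which may be technical. All groups shared genotype, age and growth before day 4. Light of 100 µmol m⁻² s⁻¹ and a red to far-red ratio of 1.1 are listed for all 4 groups. These values therefore do not say how shade differed from white light. Libraries held 3500325 to 4481869 reads assigned to genes. Levels are log2 CPM, where 1 CPM stood for 3.5 to 4.48 reads. 18S ribosomal RNA took 0.839 to 2.35% of reads at 28 °C and 0.535 to 1.67% at 20 °C. Replicates 2 and 3 of warm shade and replicate 3 of warm light lay above every library at 20 °C in that share, and results are also given without these 3 libraries, the richest in 18S RNA. Since whole seedlings were used, fewer dividing cells and less RNA per dividing cell cannot be told apart.

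The promoters of several members carry the elements that E2F and MYB3R factors are known to bind. The 250 bases before each RefSeq gene start were searched on both strands, in the TAIR10.1 assembly, for the MSA core AACGG. The E2F site was searched in 4 forms, where TTCCCGC was the first, TTCGCGC the second, TTGCCGC the next and TTGGCGC the last. An MSA core lay before 12 of the 18 mitotic genes (66.7%) and before 20.6% of all 27443 protein-coding genes. At least 2 cores lay before 7 of these 18 genes (38.9%) and before 3.62% of all. An E2F site lay before 3 of the 7 S phase genes (42.9%), before 0 of the 18 mitotic genes and before 2.9% of all. A match is a run of letters, not a measured binding site. Gene positions here are also those of RefSeq on TAIR10.1.

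The stretches below end at the base before the gene start. They are those of some members that hold a motif and passed in at least 1 comparison, with CYCB1;1, which passed in none, as the usual marker of mitotic cells. Since they were picked for holding a motif, they say nothing of a link between motif and change. Capitals mark the E2F sites in the first 3 and the MSA cores in the other 3, on either strand. The stretches lie at chr1:16970154-16970213 (MCM2, plus strand), chr5:18773707-18773886 (MCM3, minus strand), chr2:3527501-3527560 (MCM5, minus strand), chr4:17624309-17624488 (CYCB1;1, minus strand), chr1:7137829-7137948 (CYCB2;3, minus strand) and chr1:6324379-6324418 (HINKEL, minus strand).
MCM2: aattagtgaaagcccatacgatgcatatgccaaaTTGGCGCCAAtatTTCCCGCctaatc
MCM3: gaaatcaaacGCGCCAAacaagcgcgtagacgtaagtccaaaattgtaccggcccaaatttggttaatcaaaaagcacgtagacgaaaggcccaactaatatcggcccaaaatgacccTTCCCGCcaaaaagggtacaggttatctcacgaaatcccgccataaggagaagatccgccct
MCM5: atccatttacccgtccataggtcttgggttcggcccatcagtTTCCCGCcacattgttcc
CYCB1;1: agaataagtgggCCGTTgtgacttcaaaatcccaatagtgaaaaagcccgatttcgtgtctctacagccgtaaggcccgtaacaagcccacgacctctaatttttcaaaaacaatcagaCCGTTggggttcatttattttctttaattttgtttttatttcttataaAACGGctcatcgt
CYCB2;3: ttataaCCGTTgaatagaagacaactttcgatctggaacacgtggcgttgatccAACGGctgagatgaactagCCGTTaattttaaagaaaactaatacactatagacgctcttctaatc
HINKEL: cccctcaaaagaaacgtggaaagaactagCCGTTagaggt

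MCM2 held 3 matches, of which 2 overlap because TTGGCGC reads on both strands of one palindrome. CYCB1;1 and CYCB2;3 held 3 MSA cores each and HINKEL 1. KRP1, a kinase inhibitor, had 6 cores in its window. CYCD1;1, CYCD3;2, SIM and CDC20.1, whose levels changed below, had neither motif in theirs, which says only that these letters are not in that window.

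Few members changed with shade or with warmth. Averaged over both temperatures, shade raised 3 of the 40 members and lowered 4 (limma, Benjamini-Hochberg adjusted p under 0.05 over all tested genes). That is 17.5% of the members beside 11.6% of the 21316 genes tested, of which 6.89% rose and 4.68% fell. CYCD1;1, SIM and MCM3 rose, and CDC20.1, CYCD3;1, CYCD3;2 and HINKEL fell. The median log2 change of the members was -0.15, against 0.01 for all tested genes. Averaged over both light conditions, warmth raised 5 members and lowered 0, or 12.5% beside 19.1% of tested genes, of which 13.1% rose and 5.94% fell. These were CYCD3;1, MCM5, SIM, KRP2 and CYCB2;3. The members' median was 0.14 and that of all tested genes 0.13. None of these 5 rises passed after the libraries were scaled to remove the general shift, nor without the 3 libraries richest in 18S RNA, when 5 members passed for shade. With the same prior variance for all genes, 3 members passed for shade (CYCD1;1, CYCD3;2 and HINKEL) and 1 for warmth (CYCD3;1). That setting ended 15 of the 27 calls of members over all comparisons. Leaving out a single library gave 4 to 7 calls for shade, the fewest without replicate 3 of cool light or replicate 1 of warm light. It gave 2 to 6 for warmth, the fewest, at 2 each, without replicate 2 of warm shade or replicate 2 of cool shade. A further 7 libraries brought the warmth count to 3 when left out: replicates 1 and 3 of warm shade, replicate 1 of cool shade, replicates 1 to 3 of warm light and replicate 2 of cool light.

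**Figure D1:**
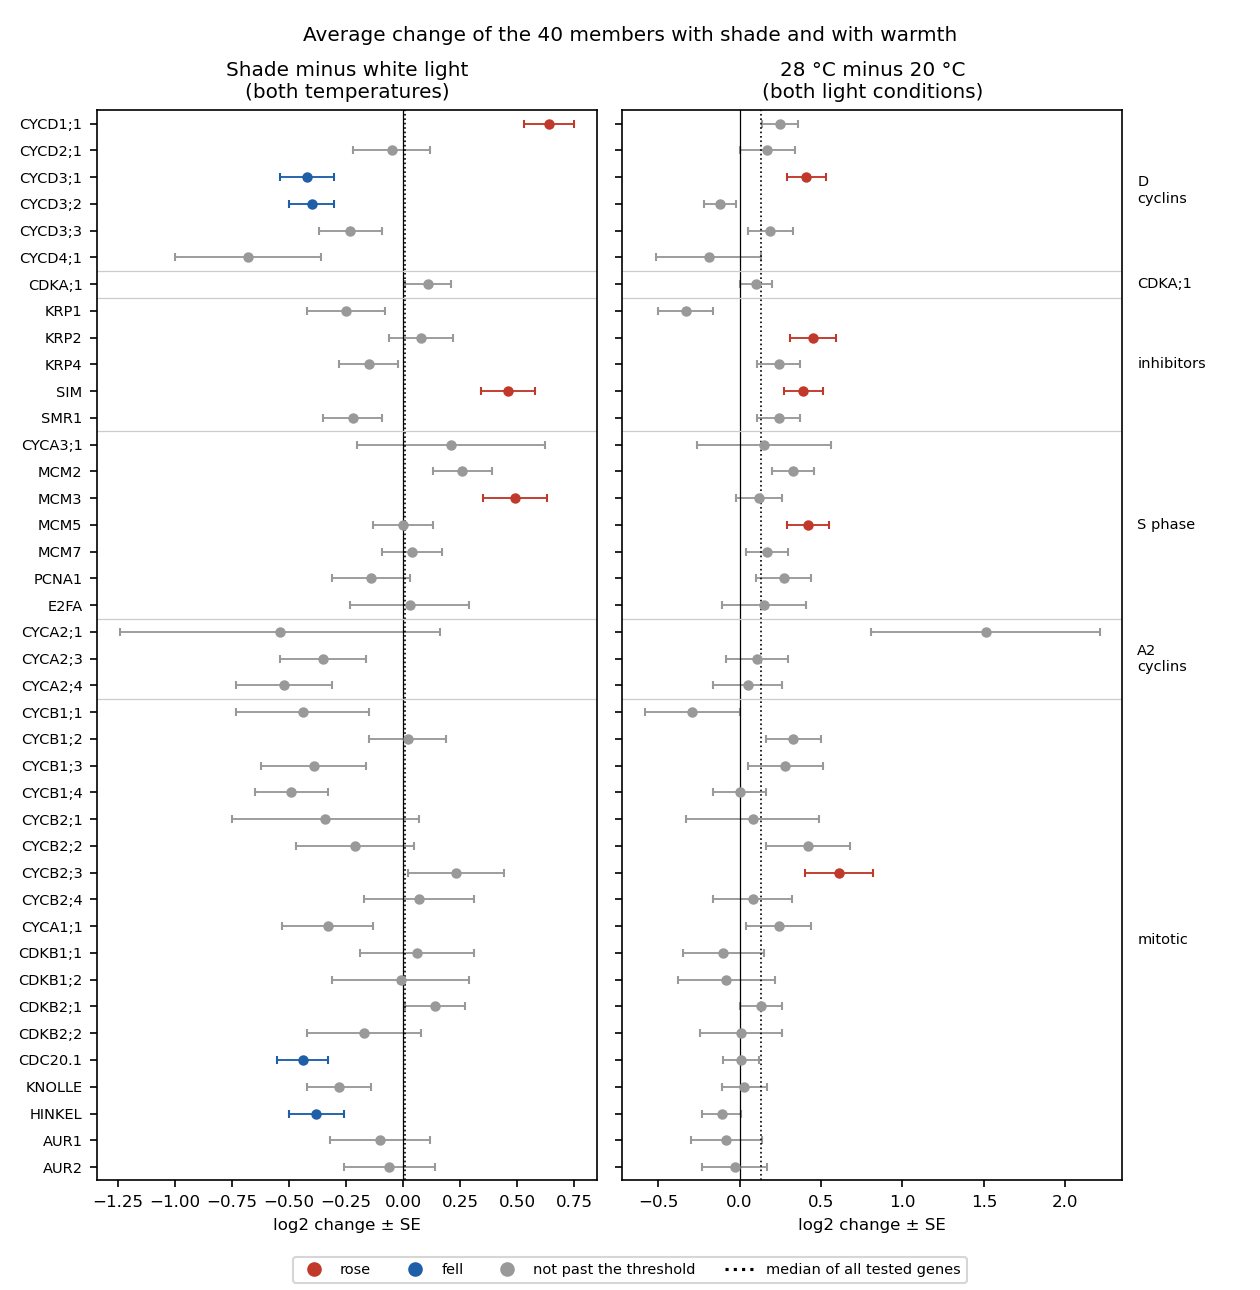
Average log2 change (x axis, ± SE of the limma fit) of each of the 40 members, by role, for shade minus white light (left) and 28 °C minus 20 °C (right). Red members rose, blue members fell, grey ones did not pass, and the dotted line is the median of all tested genes. On the left CYCD1;1 lies furthest to the right of the red points at 0.64. On the right the 5 red points lie between 0.39 and 0.61, and none of them passed after rescaling.

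In the single comparisons 0 to 8 of the 40 members passed. Shade and warmth together, set against cool light, raised 5 members and lowered 3, or 20% beside 22.3% of tested genes (14.9% rose and 7.42% fell). CYCD1;1, SIM, MCM2, MCM3 and CYCB2;3 rose and CYCD3;2, HINKEL and CDC20.1 fell. After median subtraction or trimmed mean scaling 2 members rose (CYCD1;1 and SIM) and 4 fell, with KRP1 added to the 3 above, and after quantile normalization 2 rose and 5 fell, with CYCB1;4 added as well. Without replicate 3 of warm shade 2 rose and 4 fell. The count was 3 (1 rose and 2 fell) without the 3 libraries richest in 18S RNA. It was 3 without replicate 1 of warm shade, 4 without replicate 2 of cool light, and 5 without replicate 2 of warm shade or replicate 3 of cool light. Warm shade, against warm light, raised CYCD1;1 and SIM and lowered CYCD3;2 and HINKEL, or 10% beside 4.59% of tested genes (2.68% rose and 1.9% fell). That count was 1 without the 3 libraries richest in 18S RNA, 1 without replicate 2 of warm shade, and 2 without replicate 1 or 3 of warm shade or replicate 1 or 2 of warm light.

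Cool shade, against cool light, raised CYCD1;1 and lowered CDC20.1, or 5% beside 8.09% of tested genes (5.43% rose and 2.66% fell). The fall of CDC20.1 was lost, leaving 1 call, without replicate 2 or 3 of cool shade or replicate 3 of cool light. Warmth in white light, 28 °C against 20 °C, raised MCM5 alone, or 2.5% beside 15.6% of tested genes (10.8% rose and 4.8% fell), and lowered no member. That call was lost without replicate 3 of warm light and without replicate 3 of cool light, when CYCB2;3 passed in its place (0.95, beside 0.65 as reported and 0.16 without replicate 2 of cool light), and 2 members passed without replicate 1 of cool light, when PCNA1 was added. Warmth under shade, 28 °C against 20 °C, gave 0 calls by limma, beside 4.18% of tested genes (2.19% rose and 1.99% fell). At an unadjusted p under 0.05 it had 8 of the 40 members (20%), beside 16.5% of all tested genes. SIM came nearest, with a log2 change of 0.59 ± 0.18 (SE, limma adjusted p = 0.0566), and passed alone with voom weights, with 2 reads added, and without replicate 1 of warm shade or replicate 1 or 3 of warm light. Its value was 0.29 without the 3 libraries richest in 18S RNA. The interaction of shade with warmth also gave 0 calls by limma, beside 0.446% of tested genes (0.127% positive and 0.319% negative), and 5 of the 40 members (12.5%) at an unadjusted p under 0.05, beside 9.86% of tested genes. The member with the smallest adjusted p was AUR2, a spindle kinase, at -1.11 ± 0.40 (limma adjusted p = 0.307). AUR2 shares 35.5% of its 50-base words with other genes, above all one on the opposite strand, so its level is uncertain. Comparisons that share a group also share its libraries, so their calls are not independent.

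Counted by whether the 3 libraries of a group lay all above or all below those of the other, with no test, more members separated than passed. The same held for all tested genes, so this is not a trait of the members. In warm shade 4 members lay above and 9 below warm light, or 10% and 22.5% of members beside 9.82% and 10.2% of tested genes. The 9 were CYCD3;1, CYCD3;2, CYCD4;1, CYCA2;3, CYCA2;4, CYCB1;4, HINKEL, AUR2 and PCNA1, and so came from the D and A2 cyclins, the mitotic genes and S phase. In warm shade 10 members (25%) lay above and 3 (7.5%) below cool shade, beside 14.5% and 7.37% of tested genes. In warm shade against cool light 6 (15%) lay above and 6 (15%) below, beside 24.3% and 11.4%. In cool shade 3 (7.5%) lay above and 4 (10%) below cool light, beside 15.3% and 9.55%. In warm light 3 (7.5%) lay above and 0 below cool light, beside 23.5% and 8.95%.

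CYCD1;1 and CYCD3;2, a pair of D cyclins, moved in opposite directions with shade. CYCD1;1 (AT1G70210, chr1:26439556-26443007) had log2 CPM levels of 5.60, 5.46 and 5.46 in warm shade, 5.38, 5.17 and 5.35 in cool shade, 4.98, 5.13 and 4.63 in warm light and 4.54, 4.42 and 4.90 in cool light. All 6 shade libraries lay above all 6 white light libraries. Its average change with shade was 0.64 ± 0.11 on the log2 scale (limma adjusted p = 0.000152; SE, n = 6 libraries each), with 0.59 ± 0.16 at 28 °C, 0.68 ± 0.16 at 20 °C and 0.89 ± 0.16 for shade with warmth against neither. The average rise, the rise at 20 °C and that with both treatments kept passing under all 23 or 24 alternatives run. The rise at 28 °C did not pass without the 3 libraries richest in 18S RNA (0.55), without any 1 of the warm shade replicates (0.54 to 0.62) or without replicate 3 of warm light (0.45). With warmth CYCD1;1 had an average change of 0.25 ± 0.11 that did not pass (limma adjusted p = 0.115), and passed without replicate 3 of warm light or at 20 °C, at 0.32 each. It was 0.12 to 0.14 after rescaling.

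CYCD3;2 (AT5G67260, chr5:26836139-26839597) was lowest where shade and warmth were combined. D3 cyclins are known for keeping leaf cells in the division cycle and delaying endoreduplication. Its levels were 4.81, 4.96 and 5.03 in warm shade, 5.33, 5.46 and 5.08 in cool shade, 5.54, 5.70 and 5.48 in warm light and 5.45, 5.27 and 5.62 in cool light. The warm shade libraries lay below the other 9, while shade and white light overlapped at 20 °C. The change with shade was -0.64 ± 0.14 at 28 °C (limma adjusted p = 0.00511) and -0.16 ± 0.14 at 20 °C (limma adjusted p = 0.594). The fall at 28 °C did not pass with a constant prior variance (limma adjusted p = 0.0574). The difference between the changes at 28 and 20 °C, -0.48 ± 0.20, did not pass (limma adjusted p = 0.41). Against neither treatment the change was -0.51 ± 0.14 with both (limma adjusted p = 0.00858), or -0.43 without replicate 3 of cool light, when it did not pass. The average fall with shade, -0.40 ± 0.10, passed under all 23 alternatives.

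Expressed as a difference within each library, the log2 CPM of CYCD1;1 minus that of CYCD3;2 was 0.79, 0.50 and 0.43 in warm shade and 0.05, -0.29 and 0.27 in cool shade. It was -0.55, -0.58 and -0.84 in warm light and -0.91, -0.84 and -0.72 in cool light. These values are not corrected for transcript length, so only their shift between groups can be read. The warm shade libraries lay above those of cool shade, and both above all white light libraries. The pair was chosen after the values were seen and no test was made of it.

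**Figure D2:**
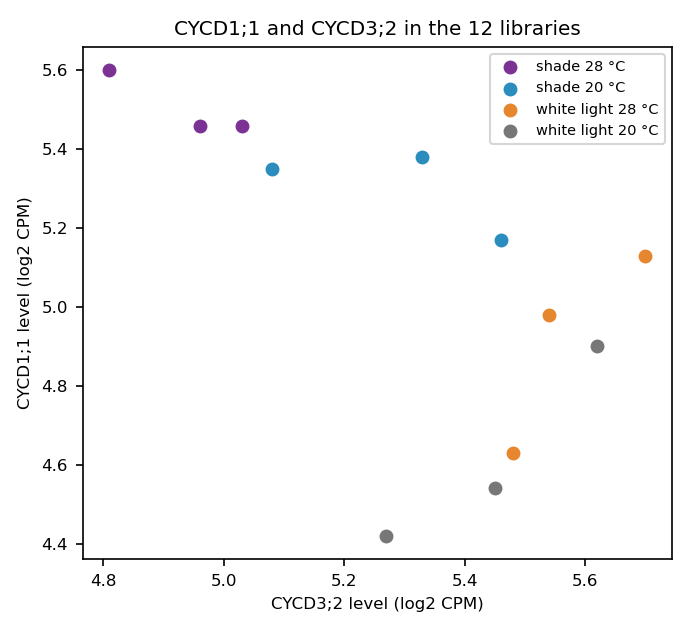
Level of CYCD1;1 (y axis, log2 CPM) against that of CYCD3;2 (x axis, log2 CPM) in each of the 12 libraries, coloured by group. The 3 warm shade libraries lie at the upper left, with CYCD1;1 at 5.46 to 5.60 and CYCD3;2 at 4.81 to 5.03, and the white light libraries lie at the lower right, with CYCD1;1 at 5.13 or less.

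CYCD3;1 (AT4G34160), the D cyclin known for its induction by cytokinin, fell with shade and rose with warmth, so that warm shade lay close to cool light. Its levels were 4.70, 4.93 and 4.58 in warm shade, 4.06, 4.53 and 4.33 in cool shade, 5.16, 5.16 and 5.08 in warm light and 4.54, 4.72 and 4.98 in cool light. Warm light lay above the other 9 libraries, and shade lay below white light without overlap at each temperature. The average change was -0.42 ± 0.12 with shade (limma adjusted p = 0.0176) and 0.41 ± 0.12 with warmth (limma adjusted p = 0.0152), and that of both treatments against neither was -0.01 ± 0.17. The fall with shade was lost without replicate 1 of cool shade (-0.36), replicate 3 of warm shade (-0.38), replicate 3 of cool light (-0.36) or the 3 libraries richest in 18S RNA (-0.45). The rise with warmth was 0.27 to 0.30 after rescaling and 0.40 without those 3 libraries, and passed in neither case.

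The other 3 D cyclins passed in no comparison. CYCD3;3 had an average change with shade of -0.23 ± 0.14, CYCD4;1 of -0.68 ± 0.32 and CYCD2;1 of -0.05 ± 0.17. CYCD4;1 was counted with 4 to 28 reads a library. The summed level of the 3 D3 cyclins was 75, 87.8 and 73.6 CPM in warm shade, 70.5, 90.2 and 68.7 CPM in cool shade, 104, 112 and 99.1 CPM in warm light and 90.8, 83.8 and 104 CPM in cool light. At 28 °C the shade sums lay below all white light sums, and at 20 °C they overlapped.

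CDKA;1, the kinase partner of the D cyclins, stayed within a narrow range, with changes of 0.04 to 0.21 in the single comparisons and none past the threshold. Its mean level was 5.49 ± 0.11 in warm shade, 5.45 ± 0.12 in cool shade, 5.44 ± 0.26 in warm light and 5.28 ± 0.14 in cool light (log2 CPM, SD, n = 3 each).

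Among the inhibitors, SIM rose and was highest under the combined treatment. SIM (SIAMESE, AT5G04470, chr5:1266625-1267416) is known for stopping division and starting endoreduplication in leaf hairs. Its levels were 5.05, 5.71 and 5.28 in warm shade, 4.90, 4.66 and 4.73 in cool shade, 4.44, 4.75 and 4.91 in warm light and 4.62, 4.25 and 4.61 in cool light. The 3 libraries with both treatments lay above the other 9, and the highest, replicate 2, also had the largest share of 18S reads, 2.35%. The change for both treatments against neither was 0.85 ± 0.18 (limma adjusted p = 0.000686), and it passed under 23 of 24 alternatives. The exception was leaving out the 3 libraries richest in 18S RNA, which keeps a single library of that group, at 0.56 (limma adjusted p = 0.146, beside 0.000327 to 0.146 over all alternatives). The average change was 0.46 ± 0.12 with shade (limma adjusted p = 0.0138) and 0.39 ± 0.12 with warmth (limma adjusted p = 0.0257).

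The change of SIM with warm shade, 0.65 ± 0.18 (limma adjusted p = 0.0273), was lost without replicate 2 (0.47) or 3 (0.68) of warm shade or replicate 1 (0.52) or 2 (0.67) of warm light. Its average rise with shade was lost without replicate 2 of warm shade (0.37), replicate 1 of warm light (0.39) or the 3 libraries (0.36). That with warmth was lost without replicate 2 of warm shade (0.30), replicate 2 of cool shade (0.37), replicate 2 (0.38) or 3 (0.34) of warm light, replicate 2 of cool light (0.33) or the 3 libraries (0.19), and was 0.26 to 0.29 after rescaling. In the RefSeq annotation SIM overlaps a gene on the opposite strand, AT5G04475, which is not a row of the deposited table and holds 25.4% of the 50-base words of SIM, and the labels do not call the library kit strand-specific.

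KRP2, a KRP inhibitor, rose with warmth by an average of 0.45 ± 0.14 on the log2 scale (limma adjusted p = 0.0271). Its levels were 4.66, 4.79 and 4.61 in warm shade, 4.12, 4.25 and 4.06 in cool shade, 4.66, 4.21 and 4.67 in warm light and 3.60, 4.37 and 4.47 in cool light. Temperatures did not overlap under shade and overlapped in white light. The rise did not pass after rescaling (0.32 to 0.35), without the 3 libraries richest in 18S RNA (0.40), or without replicate 2 of warm shade (0.43), replicate 1 (0.45) or 3 (0.43) of cool shade, replicate 1 (0.42) or 3 (0.42) of warm light or replicate 1 of cool light (0.32).

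KRP1, KRP4 and SMR1, the last a SIAMESE relative, passed in no comparison. KRP4 and SMR1 share 37.4% and 32.7% of their 50-base words with other genes, above all one on the opposite strand, so their levels are uncertain. KRP1 had a change of -0.58 ± 0.23 with both treatments against neither (limma adjusted p = 0.0756). It lay between -0.74 and -0.72 after each of the 3 rescalings, when it passed, as it did without replicate 3 of warm shade (-0.74) and without the 3 libraries richest in 18S RNA (-1.03). It was -0.35 without replicate 1 of warm shade (limma adjusted p = 0.333) and -0.39 without replicate 1 of cool light (limma adjusted p = 0.331). SMR1 had a change of -0.55 ± 0.19 with shade at 20 °C (limma adjusted p = 0.0666) and 0.12 ± 0.19 with shade at 28 °C, a difference that did not pass (0.68 ± 0.26, limma adjusted p = 0.368). After rescaling the value at 20 °C was -0.62 to -0.59 and passed. The 5 inhibitors summed to 129, 142 and 131 CPM in warm shade and 101, 102 and 101 CPM in cool shade, and to 120, 111 and 126 CPM in warm light and 122, 99.6 and 115 CPM in cool light. In these sums, which were not rescaled, warm shade lay above the other 9. Replicate 1 of cool light had a trimmed mean factor of 0.958, and replicates 1 and 3 of warm shade 1.02 and 1.04. Divided by these factors, the sums of warm shade and cool light overlap.

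**Figure D3:**
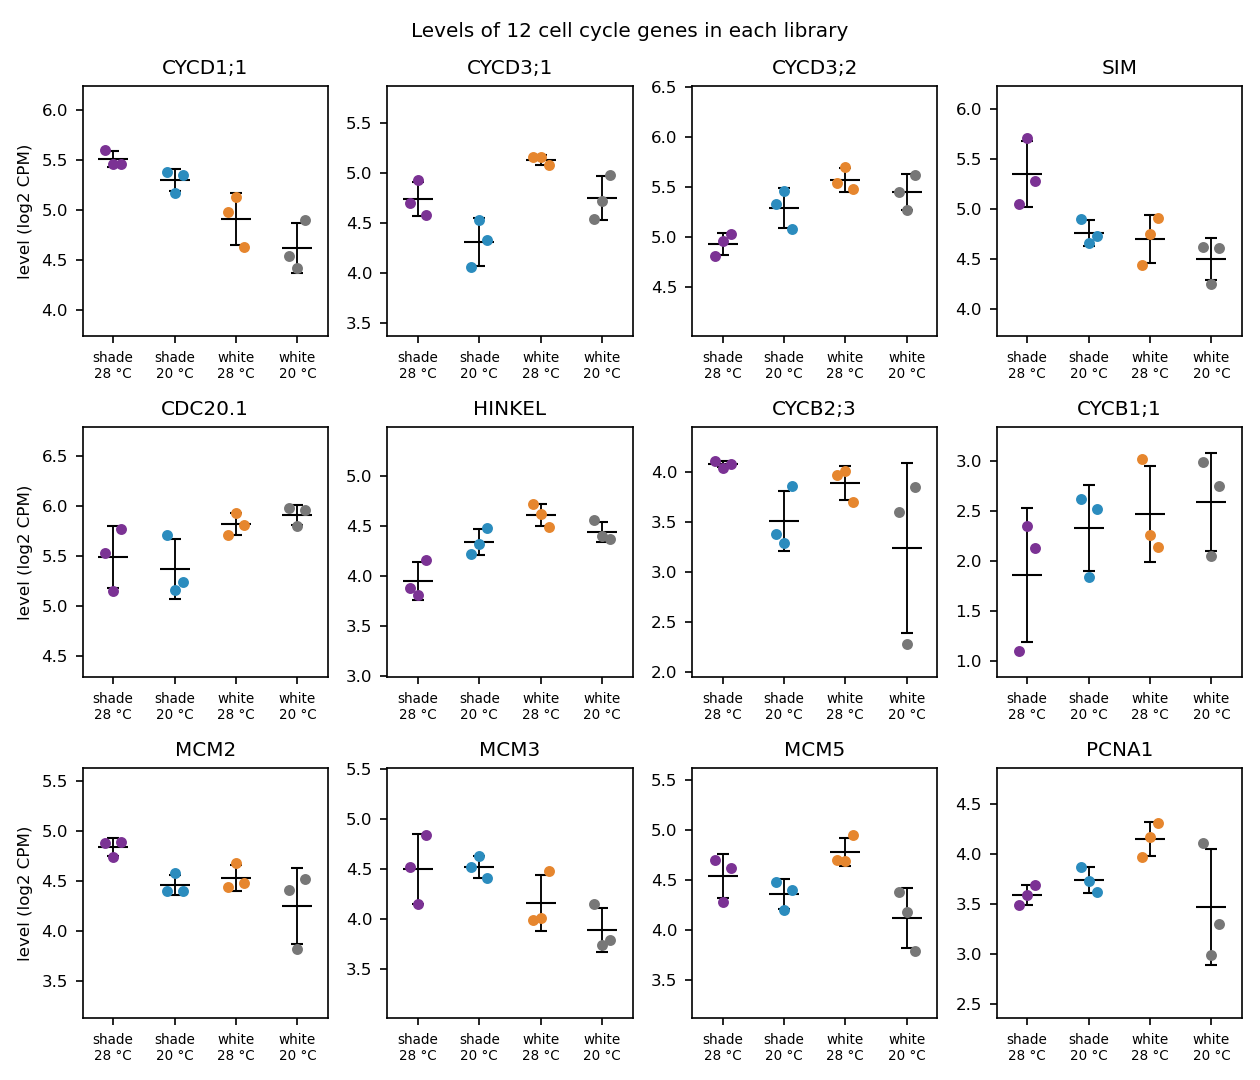
Level (y axis, log2 CPM; each axis spans the same number of log2 units over a different range) of 12 members in each library, with the mean and SD of each group of 3 as bars. In CYCD1;1 the 6 shade libraries lie above the 6 white light libraries. In CYCD3;2 and HINKEL the warm shade libraries lie below the other 9, and in SIM and MCM2 above them. CYCB2;3 in cool light holds 1 low library at 2.28.

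Of the 7 S phase genes, MCM2, MCM3 and MCM5 each passed in at least 1 comparison, and no S phase gene fell. Their proteins are subunits of the helicase that opens DNA at replication origins. MCM3 (AT5G46280, chr5:18769649-18773706) had levels of 4.52, 4.15 and 4.84 in warm shade, 4.52, 4.63 and 4.41 in cool shade, 3.99, 4.01 and 4.48 in warm light and 4.15, 3.74 and 3.79 in cool light. Shade and white light did not overlap at 20 °C and overlapped at 28 °C. Its average rise with shade was 0.49 ± 0.14 (limma adjusted p = 0.0244), and its rise with both treatments against neither 0.61 ± 0.20 (limma adjusted p = 0.0307). The average rise was lost when replicate 3 of warm shade (0.40), replicate 2 of cool shade (0.46), replicate 1 (0.44) or 2 (0.45) of warm light, or replicate 2 (0.45) or 3 (0.46) of cool light was left out. The rise with both treatments was lost without replicate 1 (0.60) or 3 (0.44) of warm shade, replicate 2 (0.53) or 3 (0.56) of cool light or the 3 libraries richest in 18S RNA (0.63), and was 0.46 to 0.47 after rescaling.

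MCM2 (AT1G44900, chr1:16970214-16974753) was highest with both treatments. Its levels were 4.88, 4.74 and 4.89 in warm shade, 4.40, 4.58 and 4.40 in cool shade, 4.44, 4.68 and 4.48 in warm light and 4.41, 3.82 and 4.52 in cool light. The warm shade libraries lay above the other 9, and the lowest value was replicate 2 of cool light. The change for both treatments against neither was 0.59 ± 0.18 (limma adjusted p = 0.0198), and 0.37 without that replicate (limma adjusted p = 0.165, beside 0.0104 to 0.165 over all alternatives). It also missed the threshold without replicate 1 or 3 of warm shade (0.56 each), without the 3 libraries richest in 18S RNA (0.63), and after rescaling (0.43 to 0.45).

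MCM5 (AT2G07690, chr2:3522984-3527500) rose with warmth. Its levels were 4.70, 4.28 and 4.62 in warm shade, 4.48, 4.2 and 4.40 in cool shade, 4.70, 4.69 and 4.95 in warm light and 4.38, 4.18 and 3.79 in cool light. Temperatures did not overlap in white light and overlapped under shade. The change with warmth in white light was 0.66 ± 0.18 (limma adjusted p = 0.0141), and the average change with warmth 0.42 ± 0.13 (limma adjusted p = 0.0228) and with shade 0.00 ± 0.13. In white light it was 0.51 to 0.52 after rescaling, 0.58 without replicate 3 of warm light, the 1 library of that group among the 3 with most 18S reads, and 0.50 without replicate 3 of cool light, and passed in none of these. The average rise was 0.29 to 0.31 after rescaling. It was also lost without replicate 1 (0.38) or 3 (0.40) of warm shade, replicate 2 of cool shade (0.38), replicate 3 of warm light (0.38) or at 20 °C (0.34), or the 3 libraries (0.46).

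MCM7, PCNA1, E2FA and CYCA3;1 passed in no comparison. MCM7 is a further helicase subunit, PCNA1 the sliding clamp of DNA polymerases, E2FA a transcription factor of replication genes and CYCA3;1 a cyclin. PCNA1 had levels of 3.49, 3.59 and 3.69 in warm shade, 3.87, 3.73 and 3.62 in cool shade, 3.97, 4.17 and 4.31 in warm light and 4.11, 2.99 and 3.30 in cool light. Its change with warmth in white light, 0.68 ± 0.25 (limma adjusted p = 0.0608), was 1 and passed without replicate 1 of cool light, and was 0.44 and did not pass without replicate 2 of cool light (limma adjusted p = 0.294). CYCA3;1 was counted with 5 to 14 reads a library and E2FA with 11 to 28. For warmth in white light all 7 S phase genes had a positive log2 change, with a median of 0.28, but only 5 lay above the median of all tested genes, 0.16.

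The 3 A2 cyclins, partners of CDKB1;1 that are known for restraining endoreduplication, passed in no comparison. Their average changes with shade were -0.54 ± 0.70 for CYCA2;1, -0.35 ± 0.19 for CYCA2;3 and -0.52 ± 0.21 for CYCA2;4. CYCA2;1 had 0 to 6 reads a library, with none in 1 library of cool shade and 1 of cool light. Its change with warmth under shade, 1.85 ± 0.99, was the largest positive change of any member in a single comparison and did not pass (limma adjusted p = 0.362). At 28 °C all shade libraries lay below all white light libraries for CYCA2;3 and CYCA2;4.

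Of the 18 mitotic genes, CDC20.1 and HINKEL fell with shade, CYCB2;3 rose with warmth, and 15 passed in no comparison. CDC20.1 (AT4G33270), an activator of the complex that marks mitotic cyclins for breakdown, had levels of 5.53, 5.15 and 5.77 in warm shade, 5.71, 5.16 and 5.24 in cool shade, 5.71, 5.93 and 5.81 in warm light and 5.98, 5.80 and 5.96 in cool light. Shade lay below white light without overlap at 20 °C, and the groups overlapped at 28 °C. The average change with shade was -0.44 ± 0.11 (limma adjusted p = 0.00619), and it passed under 22 of 23 alternatives, all but that with a constant prior variance (limma adjusted p = 0.0818, beside 0.00129 to 0.0818 over all). At 20 °C the change was -0.55 ± 0.15 (limma adjusted p = 0.0224), and was lost without replicate 2 (-0.44) or 3 (-0.48) of shade or replicate 1 (-0.51) or 3 (-0.52) of white light. With both treatments it was -0.43 ± 0.15 (limma adjusted p = 0.043), and was lost without replicate 1 (-0.45) or 2 (-0.26) of warm shade, replicate 2 of warm light (-0.43), any 1 replicate of cool light (-0.48 to -0.40), or the 3 libraries richest in 18S RNA (-0.38). CDC20.1 shares 31.4% of its 50-base words with other genes, above all its neighbour CDC20.2 (AT4G33260), which had an average change of -0.44 with shade (limma adjusted p = 0.00649). The level of each copy is therefore uncertain.

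HINKEL (AT1G18370, chr1:6319450-6324378), a kinesin of the phragmoplast that builds the new cell wall, was lowest with both treatments. Its levels were 3.88, 3.81 and 4.16 in warm shade, 4.22, 4.32 and 4.48 in cool shade, 4.72, 4.62 and 4.49 in warm light and 4.56, 4.40 and 4.37 in cool light. The warm shade libraries lay below the other 9. The change with shade was -0.66 ± 0.17 at 28 °C (limma adjusted p = 0.0225) and -0.10 ± 0.17 at 20 °C (limma adjusted p = 0.807), and the difference between them, -0.56 ± 0.25, did not pass (limma adjusted p = 0.452). At 28 °C it was lost without replicate 1 (-0.63) or 2 (-0.59) of shade, replicate 1 (-0.61) or 2 (-0.66) of white light, or the 3 libraries richest in 18S RNA (-0.79). The change for both treatments against neither was -0.50 ± 0.17 (limma adjusted p = 0.0414), and was lost without replicate 1 (-0.46) or 2 (-0.43) of warm shade, any 1 replicate of cool light (-0.53 to -0.44) or the 3 libraries (-0.57). The average change with shade, -0.38 ± 0.12 (limma adjusted p = 0.042), was lost when any 1 of 9 libraries was left out, all but replicate 3 of each shade group and of warm light (-0.40 to -0.35), and without the 3 libraries (-0.45). It was also lost with a robust prior variance, as was the combined call.

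CYCB2;3 (AT1G20610), a B cyclin, had levels of 4.11, 4.04 and 4.08 in warm shade, 3.38, 3.29 and 3.86 in cool shade, 3.97, 4.01 and 3.70 in warm light and 3.60, 2.28 and 3.85 in cool light. Temperatures did not overlap under shade, and the lowest of the 12 values was replicate 2 of cool light. CYCB2;3 shares 17.3% of its 50-base words with AT1G20590, so its level is uncertain. Its average rise with warmth was 0.61 ± 0.21 (limma adjusted p = 0.0389), and that with both treatments against neither 0.83 ± 0.29 (limma adjusted p = 0.0404). Without that replicate the 2 values were 0.37 (limma adjusted p = 0.134, beside 0.011 to 0.134 over all alternatives) and 0.35 (limma adjusted p = 0.361, beside 0.00939 to 0.361). After rescaling they were 0.47 to 0.50 and 0.68 to 0.70 and did not pass. Leaving out any 1 of 7 other libraries, all but replicate 3 of cool shade, replicate 3 of warm light and replicates 1 and 3 of cool light, also ended the average call (0.55 to 0.62), and any 1 of warm shade the combined one (0.82 to 0.85). Without the 3 libraries richest in 18S RNA neither passed (0.67 and 0.86), nor did either without the filter on low values.

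The other B cyclins, including CYCB1;1, the gene most used to mark dividing cells, passed in no comparison. CYCB1;1 had levels of 1.10, 2.35 and 2.13 in warm shade, 2.62, 1.84 and 2.52 in cool shade, 3.02, 2.26 and 2.14 in warm light and 2.99, 2.05 and 2.75 in cool light, from 7 to 35 reads a library. All 4 groups overlapped, and its average change with shade was -0.44 ± 0.29 (limma adjusted p = 0.405). CYCB1;4 came nearest, with an average change of -0.49 ± 0.16 with shade (limma adjusted p = 0.0511). It passed after each of the 3 rescalings (-0.52 to -0.51), with voom weights, with a stricter filter, and without replicate 3 of warm shade (-0.56) or replicate 1 of cool shade (-0.59).

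Among the kinases and cytokinesis genes of mitosis, the CDKB and Aurora kinases and KNOLLE passed in no comparison. CDKB1;1, CDKB1;2, CDKB2;1 and CDKB2;2 had average changes with shade of 0.06 ± 0.25, -0.01 ± 0.30, 0.14 ± 0.13 and -0.17 ± 0.25. AUR1 and AUR2, kinases of the spindle, had -0.10 ± 0.22 and -0.06 ± 0.20. KNOLLE, a syntaxin that fuses vesicles at the cell plate, had -0.28 ± 0.14 (limma adjusted p = 0.253), and passed without the 3 libraries richest in 18S RNA (-0.57). KNOLLE overlaps AT1G08550 on the opposite strand, which had an average change of -0.75 ± 0.11 with warmth (limma adjusted p = 9.36e-06), so reads of the pair cannot be told apart where they overlap. In all, 16 of the 40 members have an exon that overlaps an exon of another annotated gene by at least 1 base. Among all 18 mitotic genes 13 had an average change with shade below the median of all tested genes, and the median of the 18 was -0.19.

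Set against each other, the summed level of the S phase genes was larger relative to that of the mitotic genes outside cool light. The S phase genes summed to 123, 107 and 128 CPM in warm shade, 111, 105 and 106 CPM in cool shade, 112, 111 and 130 CPM in warm light and 106, 79.7 and 88.3 CPM in cool light. The mitotic genes summed to 235, 232 and 250 CPM in warm shade, 244, 214 and 212 CPM in cool shade, 279, 287 and 245 CPM in warm light and 288, 232 and 257 CPM in cool light. The S phase sums of warm shade and of warm light lay above those of cool light, and the mitotic sums overlapped. These sums were not rescaled. Replicate 1 of cool light had a trimmed mean factor of 0.958, and replicate 2 of warm shade and of warm light 1.05 each. Divided by these factors, the S phase sums of both warm groups overlap with those of cool light.

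The ratio of S phase to mitotic sums was 0.524, 0.462 and 0.511 in warm shade (mean 0.499 ± 0.0329), 0.456, 0.490 and 0.5 in cool shade (0.482 ± 0.023), 0.401, 0.388 and 0.530 in warm light (0.440 ± 0.0787) and 0.368, 0.344 and 0.344 in cool light (0.352 ± 0.0138; SD, n = 3 each). Every library of the 3 treated groups lay above every library of cool light, and the 3 treated groups overlapped with each other. The highest, 0.530, was replicate 3 of warm light, a library rich in 18S RNA. The ratio is a description with no test, and since transcripts differ in length only its shift between groups can be read. The same ratio for 25 other S phase genes over 15 other mitotic genes averaged 1.14 ± 0.0503 in warm shade, 1.14 ± 0.069 in cool shade, 1.06 ± 0.07 in warm light and 1.02 ± 0.0523 in cool light. Shade libraries ran from 1.07 to 1.21, warm light libraries from 1.01 to 1.14 and cool light libraries from 0.964 to 1.06. In this ratio shade lay narrowly above cool light, while warm light overlapped with both. The 15 include CDC20.2, which shares sequence with CDC20.1. Its mean log2 CPM was 4.92 in warm shade, 4.72 in cool shade and 5.24 in cool light. With CDC20.2 taken out of the mitotic sums, shade and cool light overlap. The separation therefore depends on that gene.

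**Figure D4:**
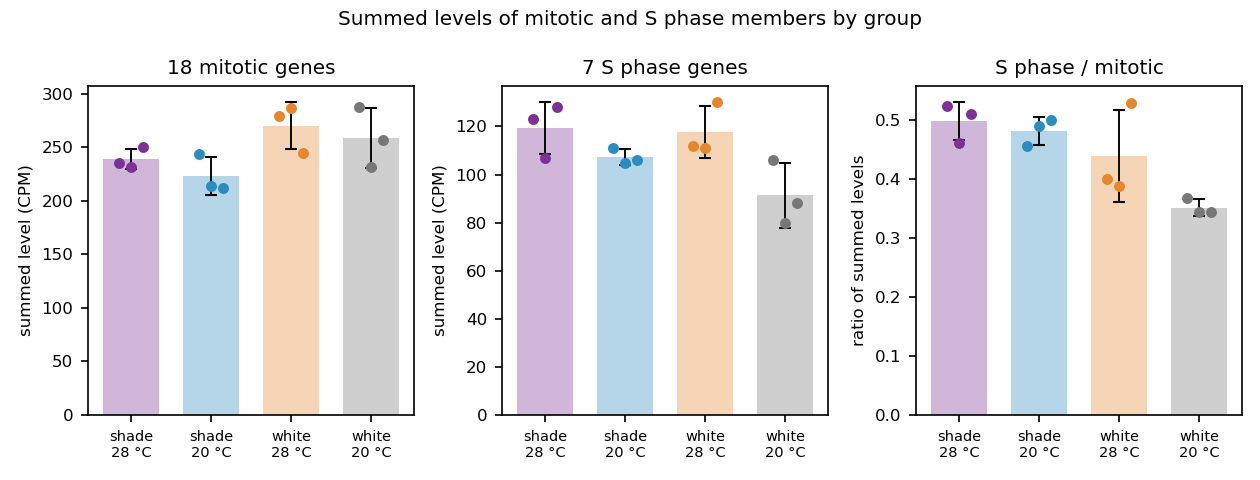
Summed level of the 18 mitotic genes and of the 7 S phase genes (y axes, CPM) and their ratio (y axis, no unit) in each library, with bars for the mean of each group and whiskers for the SD (n = 3). In the ratio the 3 libraries of cool light, at 0.344 to 0.368, lie below all others, which start at 0.388.

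Other genes of the same processes gave few calls as well. Of all tested genes 6.89% rose and 4.68% fell with shade on average, and 13.1% rose and 5.94% fell with warmth. Of 24 tested genes among 25 others of S phase, 0 changed with shade on average and 1 rose with warmth, ICU2, the catalytic subunit of DNA polymerase alpha, at 0.53 ± 0.12 (limma adjusted p = 0.00263), which passed under all 23 alternatives. ORC6, of the complex that marks replication origins, rose by 2 ± 0.56 on the log2 scale with both treatments (limma adjusted p = 0.0107), by 2.03 ± 0.56 with shade at 20 °C (limma adjusted p = 0.022) and by 1.85 ± 0.56 with warmth in white light (limma adjusted p = 0.0249), all 3 against the same cool light libraries. None of these 3 rises passed without replicate 2 of cool light (1.62, 1.65 and 1.48). ORC3 rose by 2.55 ± 0.79 with shade at 20 °C (limma adjusted p = 0.0424), and by 1.08 without that replicate, when it did not pass. Of 15 other mitotic genes, CDC20.2 fell with shade and no other gene passed in any comparison.

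Of 36 tested regulators among 39, none changed with shade on average and 4 rose with warmth. Of all tested genes 11.6% changed with shade and 13.1% rose with warmth, so these 4 rises are not a trait of the regulators. Those with the smallest adjusted p were MYB3R3, a repressor of mitotic genes, at 0.66 ± 0.16, MYB3R1, at 0.35 ± 0.09, and RBR1, at 0.33 ± 0.10 (limma adjusted p = 0.00342, 0.00758 and 0.0163). The rise of MYB3R3 passed after each rescaling, while those of MYB3R1 (0.22 to 0.26) and RBR1 (0.19 to 0.22) did not, and none of the 3 passed without the 3 libraries richest in 18S RNA. With both treatments RBR1 rose by 0.54 ± 0.14, E2FB, an E2F factor, by 0.99 ± 0.32 and MYB3R1 by 0.39 ± 0.13 (limma adjusted p = 0.00436, 0.0256 and 0.0304). After rescaling that of RBR1 passed and those of E2FB (0.83 to 0.86) and MYB3R1 (0.24 to 0.27) did not. The rise of E2FB was also lost when any 1 replicate of warm shade (0.97 to 1.03) or replicate 2 (0.96) or 3 (0.93) of cool light was left out. That of MYB3R1 was lost without replicate 1 (0.37) or 3 (0.39) of warm shade or replicate 1 of cool light (0.25, limma adjusted p = 0.205). Among 13 replication histone genes, 2 H4 copies fell with warmth, AT5G59970 at -0.46 ± 0.12 and AT3G53730 at -0.29 ± 0.10, and 0 rose. Beside these, 5.94% of all tested genes fell with warmth and 13.1% rose. Both falls passed after each rescaling, and that of AT3G53730 was lost when any 1 of 6 libraries was left out. Histone copies are near-identical, so the level of a single copy is uncertain.

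Some markers of the stomatal lineage and of the shoot meristem passed as well, and those of the root meristem did not. Of 8 stomatal lineage genes, 3 fell with shade on average and 0 rose, beside 4.68% and 6.89% of all tested genes. The first was SPCH, the factor that starts the lineage, at -1.84 ± 0.36 (limma adjusted p = 0.000668). SPCH passed under all 23 alternatives, TMM under 22 and POLAR under only 14. The sums that follow are of all 8. Their summed level was 31.8 to 41.3 CPM in warm shade, 39.0 to 44.3 CPM in cool shade, 52.8 to 69.5 CPM in warm light and 50.4 to 57.6 CPM in cool light, so that shade lay below white light. MUTE, a defining gene of that lineage, had no read in 1 library. Among all tested genes 6.89% rose with shade and 5.94% fell with warmth. Of 6 tested markers of shoot meristem and leaf primordium among 8, KNAT1 rose with shade (0.46 ± 0.10) and GIF1 fell with warmth (-0.85 ± 0.16). Their sums were 148 to 169 CPM in warm shade, 151 to 166 CPM in cool shade, 127 to 132 CPM in warm light and 148 to 176 CPM in cool light, and WUS had no read in any library and CLV3 none in 10.

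None of 5 root meristem markers passed in any comparison, with sums of 72.1 to 76.6 CPM in warm shade and 61.2 to 70.3 CPM in the other 9 libraries, and WOX5 had no read in 6 libraries. These sums were not rescaled. Divided by trimmed mean factors, 0.921 to 0.958 in cool light and 1.02 to 1.05 in warm shade, those of both groups overlap. Of 4 markers of differentiated root, 2 rose with warmth and 1 with shade, beside 13.1% and 6.89% of all tested genes. The sums of these 4 were 4770 to 4920 CPM in warm shade and 3490 to 4420 CPM in cool shade. They were 4880 to 4940 CPM in warm light and 2950 to 4120 CPM in cool light. All 5 mesophyll genes fell with shade and with warmth on average, beside 4.68% and 5.94% of all tested genes. The fall of RBCS1A with shade passed under only 12 of 23 alternatives, and that with warmth under 21. The other falls passed under all 23. Sums of the 5 were 8960 to 14500 CPM in warm shade and 17000 to 20900 CPM in cool shade. They were 13800 to 18700 CPM in warm light and 27200 to 28000 CPM in cool light. The part of any of these tissues in the changes of the 40 members was not tested.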

How the data were processed

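The authors deposited 1 table in a unit other than read counts: log2 of CPM with 0.5 read added to each gene, which is the scale of voom. Per the submitters' processing notes, TopHat2 2.1.1, SAMtools 1.3, limma, R 4.0.2 and the TAIR10 build were used; their roles and the read counter are not given in the sources used here. Headings of ambient and heat were read as 20 and 28 °C. Whole reads came back from 100% of values within 0.001 read; reads are not unique molecules.

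Genes with a log2 value of at least 0 in at least 3 of 12 libraries were tested: 21316 of 33602, while 8802 had no read. The fit of 4 group means used limma 3.58.1 and R 4.3.3 (trended prior variance, 8 residual degrees of freedom, 2-sided), with Benjamini-Hochberg adjustment over all tested genes at 0.05. SEs are those of that fit. CPM sums and figures used Python 3.11.15, pandas 2.3.3, numpy 2.4.6 and matplotlib 3.10.9. Scripts were tested on simulated data. Members and lists were chosen with earlier results of these data known. Every member past the threshold is named, and of the other lists at most the 3 genes with the smallest adjusted p in a comparison.

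Sequences, positions and overlaps come from the RefSeq annotation of TAIR10.1, where all 40 members matched by locus tag. Residuals of libraries with the same replicate number correlated at -0.03 to 0.041 over 18 pairs, so the numbers do not pair them. Alternatives covered the prior variance, the filter, 3 rescalings (median subtraction, quantile normalization, trimmed mean), 2 added reads, voom weights, a replicate block, only the compared groups, and each library left out. Dropping the 3 libraries richest in 18S RNA was added after seeing the data.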

Additional observations from a re-analysis of the deposited data

How the results depend on the processing

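Numbers of members called, as reported and under each change, were as follows. For the average effect of shade 7 became 3 with a constant prior variance and 4 to 7 with 1 library left out. For the average effect of warmth 5 became 1 with a constant prior variance, 0 after median subtraction, quantile normalization or trimmed mean scaling, 0 without the libraries richest in 18S RNA and 2 to 6 with 1 library left out. For both treatments 8 became 5 with that prior, 3 without the libraries richest in 18S RNA and 3 to 8 with 1 library left out. For shade at 28 °C 4 became 1, 1 and 1 to 5 under the same changes, and for shade at 20 °C 2 became 1 with a constant prior variance and 1 to 3 with 1 library left out. For warmth in white light 1 became 0 after each of the 3 rescalings and without the libraries richest in 18S RNA, and 0 to 2 with 1 library left out. For warmth under shade 0 became 1 with 2 reads added, with voom weights and with the replicate block, and 0 to 1 with 1 library left out. The interaction kept 0 throughout. The replicate block rests on shared replicate numbers alone. With it the counts were otherwise 1 for warmth in white light, 3 for shade at 20 °C, 8 for both treatments and 4 for shade at 28 °C. They were 7 and 5 for the average effects and 0 for the interaction. The balance of rises and falls turned over for both treatments, where 5 rose and 3 fell as reported: 2 rose and 4 or 5 fell after rescaling, 2 rose and 4 fell without replicate 3 of warm shade, and 1 rose and 2 fell without the libraries richest in 18S RNA. No single member that passed turned its sign. Over the 41 values of single members that passed as reported or under at least 1 alternative, 776 results of alternatives kept their side of the threshold, 154 fell below it and 38 rose past it. The summed level of the inhibitors in shade at 20 °C was 103 CPM with trimmed mean scaling and 101 CPM as reported, a move larger than its SD. The median log2 change of all tested genes, 0.13 for average warmth, was 0 to 0.02 after rescaling. Members with fewer than 30 reads a library, such as CYCA2;1, CYCA3;1 and CYCB2;1, could show only large changes at this depth. Causes of these moves were not tested.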
